A study of Homo sapiens with 6 samples.

Results

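The clustered protocadherins are 53 protein-coding genes packed side by side on the long arm of human chromosome 5 in 3 clusters, alpha with 15 members, beta with 16 and gamma with 22. They were taken by position and symbol, as every gene on chromosome 5 whose symbol starts with PCDHA, PCDHB or PCDHG, without pseudogenes and antisense RNAs, and they are 53 of the 57891 genes with counts. The group was chosen by its measured difference between the genotypes in these same libraries, so the fold changes of its members are given as a description and no test is made of them. RNA was sequenced from HEK293 cells, an adenovirus-transformed line started from human embryonic kidney, in 3 wild type (WT) libraries and 3 libraries of the derivative MUL1(-/-), in which MUL1, a ubiquitin ligase of the outer mitochondrial membrane, was inactivated with CRISPR-Cas9. All cells were grown in the same medium without treatment, and the genotype was the only labelled difference. Whether the MUL1(-/-) libraries came from 1 clone, and whether the libraries of a genotype were separate cultures, was not given in the sources used here, so the spread between libraries may be technical, and the knockout cannot be told apart from the history of the line that carries it.

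Protocadherins of these clusters are single-pass membrane proteins with extracellular cadherin repeats that bind the same protein on a neighbouring cell. In neurons, where they are best known, each cell uses a small random set of the alpha, beta and gamma promoters, and the combination on the surface lets a neurite recognise its own branches. Each alpha or gamma protein is encoded by a large variable exon of its own, which carries the whole extracellular part and has its own promoter, spliced to constant exons that all members of the cluster share and that encode the common cytoplasmic end. Beta genes lack constant exons and are single large coding exons. The last members of the alpha and gamma clusters, PCDHAC1, PCDHAC2, PCDHGC3, PCDHGC4 and PCDHGC5, are called C-type and are used more evenly between cells than the others. Choice among promoters depends on CTCF and cohesin, which loop a promoter to a distant enhancer, and on DNA methylation.

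Most of these promoters hold a short conserved element with the letters CGCT, a part of the site that CTCF binds, and it is shown here because it is the feature of the upstream sequence that the members share. RefSeq start sites (GRCh38.p14) were found for 47 of the 53 members, 5 of them with more than 1 start. On the strand of the gene, CGCT lay between 100 and 30 bases before a start in 43 of the 47, namely in 12 of 13 alpha, 12 of 14 beta and 19 of 20 gamma members, against 21.6% of all 35116 promoters in the same window. Allowing either strand (CGCT or AGCG) gave 43 of 47 members and 36.3% of all promoters. The bases around the box differed between the clusters. Among words of 8 letters that hold the box, ATGTCGCT was the most common in the 250 bases before alpha starts, with 9 of 13 members, and was in no beta or gamma member searched. GTGGCGCT was in 12 of 14 beta members and in no alpha or gamma member, and GCCGCTGT was in 11 of 20 gamma members and in no alpha or beta member. Searched on both strands of the same 250 bases, these words were in 0.182%, 0.94% and 1.23% of all promoters. The words were picked from these promoters, and each overlaps the CGCT box by construction. A match to a word or to CGCT is a description of letters. It does not show bound protein or that a member holds the conserved element.

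The alpha windows below were chosen for the members with the highest levels whose sequence lies outside annotated exons, with shorter windows for PCDHA10, PCDHAC2 and PCDHA11, which have the highest levels per kb in the cluster but whose upstream bases overlap an annotated exon. Each runs 5′ to 3′ and the capitals mark the CGCT box.
PCDHA10 (chr5:140855845-140855872, plus strand): gccaccggatgtCGCTgtcgtccacaaa
PCDHAC2 (chr5:140966423-140966450, plus strand): gagccctcctacCGCTccctttccccct
PCDHA11 (chr5:140868887-140868914, plus strand): ggcgcaaggtgtCGCTctttacttggtg
PCDHA12 (chr5:140875230-140875289, plus strand): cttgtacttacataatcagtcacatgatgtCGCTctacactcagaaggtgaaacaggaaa
PCDHA1 (chr5:140786072-140786131, plus strand): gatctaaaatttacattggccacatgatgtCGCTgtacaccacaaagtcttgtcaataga
PCDHAC1 (chr5:140926206-140926265, plus strand): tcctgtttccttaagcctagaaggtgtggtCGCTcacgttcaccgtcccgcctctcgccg
PCDHA10, PCDHA12 and PCDHA1 carry the word ATGTCGCT, and PCDHAC2, PCDHA11 and PCDHAC1 do not. The 4 beta windows hold the word GTGGCGCT. They are shown for PCDHB2, the member of its cluster with the most counts, for PCDHB12 and PCDHB13, and for PCDHB5, the tested beta member with a fold change below 0, where the box lies 11 bases before the listed start.
PCDHB2 (chr5:141094548-141094575, plus strand): gacgcggggtggCGCTgcagccttagaa
PCDHB12 (chr5:141208629-141208688, plus strand): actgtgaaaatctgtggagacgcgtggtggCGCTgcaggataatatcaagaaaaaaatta
PCDHB13 (chr5:141213851-141213910, plus strand): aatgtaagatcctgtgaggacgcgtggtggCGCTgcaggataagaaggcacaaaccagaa
PCDHB5 (chr5:141135165-141135205, plus strand): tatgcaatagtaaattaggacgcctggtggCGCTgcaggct
The gamma windows are those of the 3 most abundant members of that cluster, of which PCDHGC3 and PCDHGB5 hold the word GCCGCTGT and PCDHGA11 does not.
PCDHGC3 (chr5:141475866-141475925, plus strand): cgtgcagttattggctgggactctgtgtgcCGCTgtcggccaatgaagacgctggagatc
PCDHGB5 (chr5:141397849-141397908, plus strand): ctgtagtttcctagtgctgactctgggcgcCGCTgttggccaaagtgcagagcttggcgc
PCDHGA11 (chr5:141420958-141421017, plus strand): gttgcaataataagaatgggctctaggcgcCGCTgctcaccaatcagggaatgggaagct

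Values are counts over exon bins, the non-overlapping pieces into which the exons were cut before counting. For an alpha or gamma member the bins of its variable exon were summed and for a beta member those of the gene, and levels are given as CPM, counts scaled to the library total with TMM factors. A read that touches several bins may have counted in each, as the counting settings are not given in the sources used here. Levels are therefore compared between genes only as CPM per kb of the longest bin. The libraries held 132849479 to 149317215 bin counts in WT and 127466071 to 128125459 in MUL1(-/-), so at the same level a member would have given slightly fewer counts in the knockout. The MUL1 transcript stood at 15.8 ± 2.06 CPM in the WT and 17.4 ± 1.39 CPM in the MUL1(-/-) libraries (SD, n = 3; log2 fold change 0.14 ± 0.10 SE, edgeR quasi-likelihood adjusted p = 0.301), so its transcript level does not check the label, since an edited gene may still be transcribed. Of 9 embryonic kidney markers 8 had a mean of at least 1 CPM, their sum going from 65.4 to 69.8 CPM in WT and from 52.8 to 57.7 CPM in MUL1(-/-), and 3 were called lower. UMOD, a marker of the mature kidney tubule, had at most 3 counts in every library. Of 7 neuronal markers 6 were at 1 CPM or more, as is known for this line, and their sums overlapped, at 131 to 168 CPM in WT and 119 to 156 CPM in MUL1(-/-), with 1 of the 7 called higher. The summed level of 4 epithelial markers was 436 to 481 CPM in WT and 299 to 325 CPM in MUL1(-/-), without overlap, and 0 of them were called. Of 4 fibroblast markers 1 was called higher, with sums of 24.6 to 34.3 and 26.9 to 38.0 CPM, and of 2 blood markers 1 was called higher, with sums of 0.136 to 0.311 and 0.385 to 0.495 CPM. The part of these other markers in the results was not tested.

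Across the 3 clusters the members were sparse in WT cells and more abundant in MUL1(-/-) cells. Of the 53 members, 49 had a higher mean in MUL1(-/-) and 4 a lower one. Every MUL1(-/-) library was above every WT library for 36 of the 53, namely 11 of 15 alpha, 13 of 16 beta and 12 of 22 gamma members, where 24.9% of all tested features showed this, and 1 member, PCDHB5, was below in every library, where 24.1% did. After the filter on low counts 38 members were tested, 6 alpha, 14 beta and 18 gamma. The 36 above include members that were not tested, while the share of 24.9% is over tested features only. A gene was called at an adjusted p under 0.05 with an absolute log2 fold change above 1, in a fit over 26055 features. By this rule 24 members were called higher, 6 alpha, 11 beta and 7 gamma, where 4.17% of all features were, and 0 members were called lower by edgeR, DESeq2 or limma-voom, where 3.75% of features were by edgeR. With the adjusted p alone and no limit on the fold, 28 members were higher (19.3% of all features) and 0 lower (18.4%). The contrast is the one by which the members were chosen, and several low members passed the filter only through their MUL1(-/-) counts, so these numbers are not evidence for the group.

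**Figure D1:**
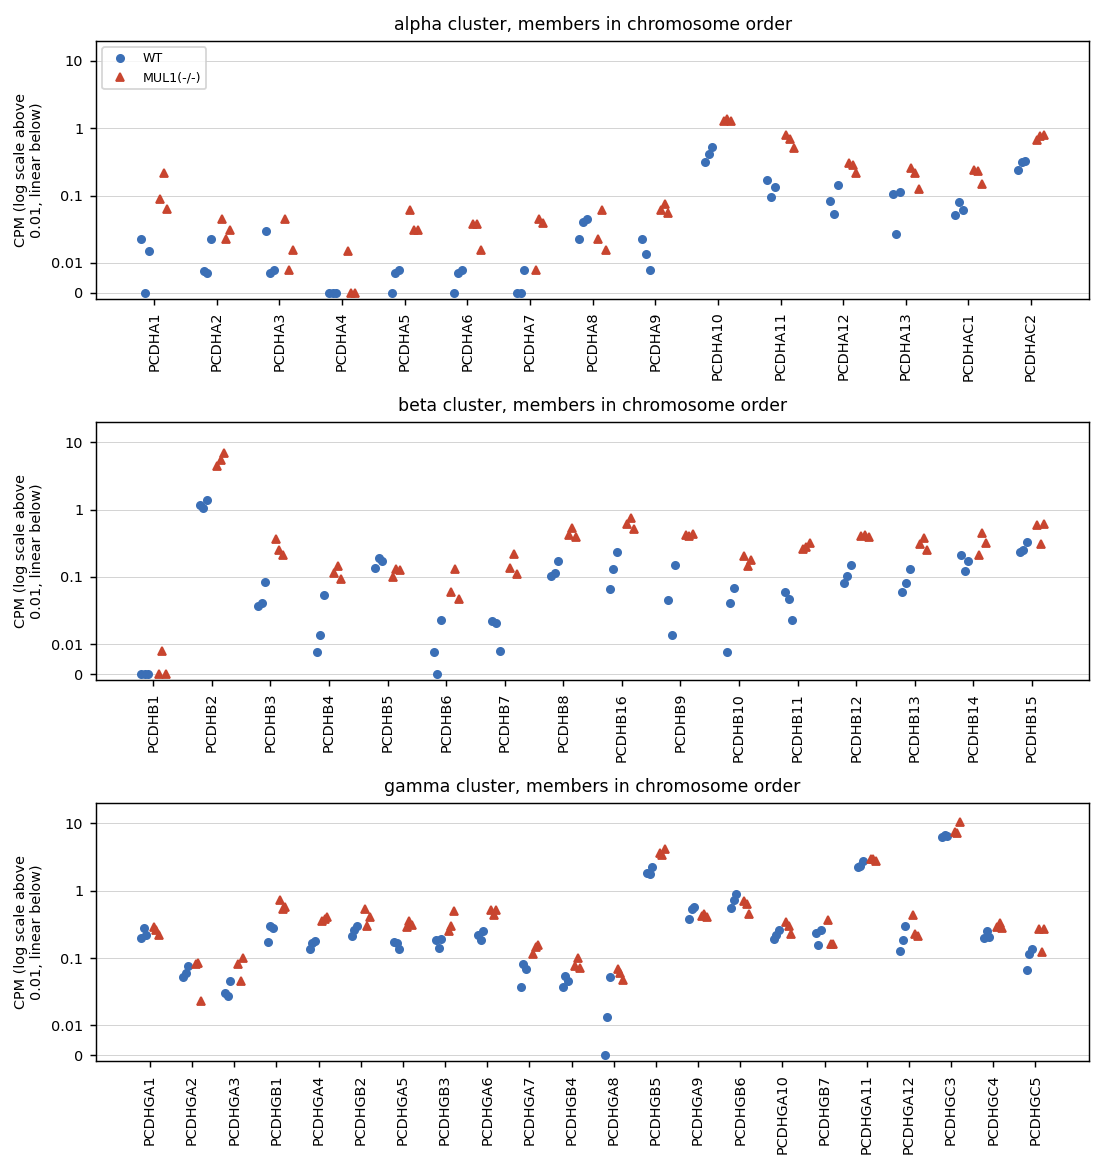
CPM of each of the 53 members in each library (circles, 3 WT; triangles, 3 MUL1(-/-)), in chromosome order with 1 panel per cluster, on an axis that is logarithmic above 0.01 CPM and linear below. In the alpha cluster all 6 tested members, PCDHA10 to PCDHAC2, have their triangles above their circles; PCDHB2, PCDHGB5, PCDHGA11 and PCDHGC3 are the 4 members with a mean of at least 1 CPM.

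The summed level of each cluster was higher in every MUL1(-/-) library than in every WT library. The alpha variable exons together had 1.07, 1.08 and 1.43 CPM in WT and 3.93, 4.05 and 3.32 CPM in MUL1(-/-), a ratio of means of 3.16. The beta genes had 2.24, 2.22 and 3.14 CPM in WT and 8.69, 9.94 and 10.8 CPM in MUL1(-/-), a ratio of 3.87. The gamma variable exons had 13.6, 14.7 and 16.1 CPM in WT and 20.4, 18.8 and 22.9 CPM in MUL1(-/-), a ratio of 1.40. Gamma thus had the highest summed CPM in both genotypes, a sum that may depend on how many bins its members were cut into, and the smallest ratio. The closest gamma libraries were WT 3 with 16.1 CPM and MUL1(-/-) 2 with 18.8 CPM. These sums are scores over members chosen on this contrast and carry no test.

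**Figure D2:**
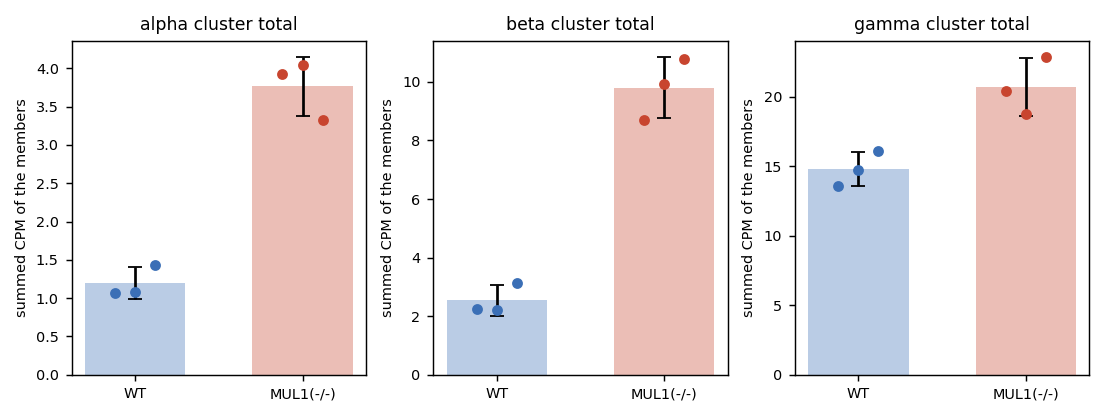
Summed CPM of the members of the alpha, beta and gamma clusters (points, libraries; bars, means; error bars, SD; n = 3 per genotype). MUL1(-/-) means are 3.77, 9.81 and 20.7 CPM and WT means 1.19, 2.54 and 14.8 CPM, with no overlap between the genotypes in any of the clusters.

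The unequal ratios changed the make-up of the protocadherin counts. Gamma members supplied 80.0% ± 1.95 of all member counts in WT and 60.3% ± 2.59 in MUL1(-/-) (SD, n = 3). Beta members went from 13.6% ± 1.46 to 28.6% ± 2.05 and alpha members from 6.41% ± 0.487 to 11.1% ± 1.83. For each cluster the 3 shares in WT and the 3 in MUL1(-/-) did not overlap. The shares rest on summed bins, and members cut into many bins, such as PCDHB2 with 15 and PCDHGC3 with 12, may weigh more in them.

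**Figure D3:**
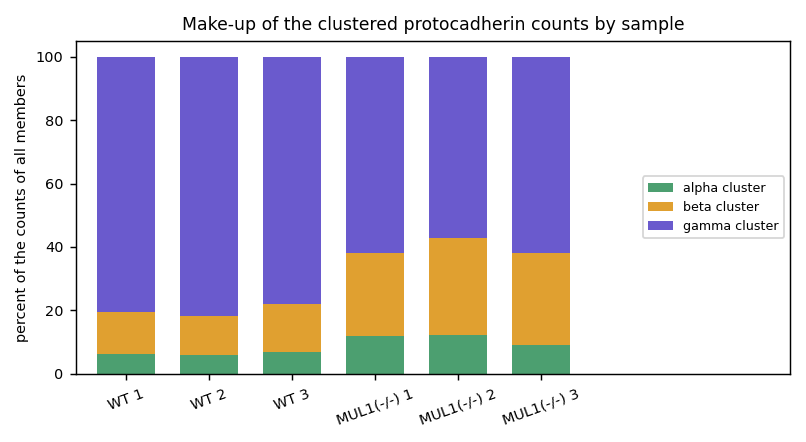
Percent of the counts of all 53 members that fell in the alpha, beta and gamma clusters, for each of the 6 libraries (stacked bars reaching 100%). The gamma share is 77.9% to 81.7% in the WT libraries and 57.3% to 61.9% in the MUL1(-/-) libraries.

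In the alpha cluster, the members with appreciable counts lay at the downstream end, from PCDHA10 to PCDHAC2, and all of them were higher in MUL1(-/-). PCDHA10, an ordinary alpha member and the most abundant, had 42, 62 and 70 counts in WT and 169, 180 and 162 in MUL1(-/-). All MUL1(-/-) libraries were far above all WT libraries, and the log2 fold change was 1.63 ± 0.20 (SE). PCDHA11, the next variable exon, had 23, 14 and 18 counts in WT and 104, 90 and 65 in MUL1(-/-), a log2 fold change of 2.30 ± 0.28, the largest of the tested alpha members. PCDHA12 had 11, 8 and 19 counts against 41, 37 and 28, again without overlap, and a log2 fold change of 1.54 ± 0.36. PCDHA13 was the least certain, with 14, 4 and 15 counts in WT and 34, 28 and 16 in MUL1(-/-), so that the lowest MUL1(-/-) and the highest WT library nearly met. Its log2 fold change of 1.29 ± 0.45 was called in 8 of the 14 other fits that could test it, and it was 0.85 without the WT library that had 4 counts.

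The C-type exons of the alpha cluster were higher too. PCDHAC1 had 7, 12 and 8 counts in WT and 32, 31 and 19 in MUL1(-/-), with no overlap and a log2 fold change of 1.67 ± 0.37. PCDHAC2, the last alpha exon, had 32, 47 and 43 counts in WT and 90, 100 and 102 in MUL1(-/-), with no overlap and a log2 fold change of 1.34 ± 0.21. Together the C-type exons supplied 30.5% ± 5.76 of alpha counts in WT and 25.5% ± 2.59 in MUL1(-/-), shares that overlapped between the libraries. These levels depend on the bins summed, and were 9.59% and 8.64% with unshared bins and 18.4% and 17.8% over all exon bins before the constant exons, the latter chosen after seeing the data. The share of PCDHA10 was also alike, at 35.1% ± 5.09 and 34.8% ± 2.90, and that of PCDHA11 was 11.5% ± 4.01 in WT and 17.4% ± 2.38 in MUL1(-/-), with the highest WT library, 16.1%, above the lowest MUL1(-/-) library, 15.3%.

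The 9 upstream exons, PCDHA1 to PCDHA9, were not tested, since their counts were too low. None exceeded 6 counts in a WT library, and 7 of them had at most 3 counts in every WT library. The clearest of them was PCDHA1, with 3, 0 and 2 counts in WT and 12, 28 and 8 in MUL1(-/-). PCDHA9 had 3, 2 and 1 against 8, 10 and 7, and PCDHA5 had 0, 1 and 1 against 8, 4 and 4. PCDHA2 and PCDHA6 also had all 3 MUL1(-/-) libraries above WT in CPM, PCDHA2 only narrowly, with 3 counts in its highest WT and its lowest MUL1(-/-) library. PCDHA3, PCDHA7 and PCDHA8 overlapped between the genotypes, and PCDHA4 had 2 counts in a single MUL1(-/-) library and 0 in the other 5. With no filter on low counts 9 alpha members were called higher, PCDHA1, PCDHA5 and PCDHA9 in addition to the 6.

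Per kb of the longest bin, the order of the alpha levels was the same for the leading members in both genotypes. In WT, PCDHA10 had 0.160 ± 0.030 CPM per kb and PCDHAC2 0.0986 ± 0.013, without overlap, followed by PCDHA11 with 0.0427 ± 0.0095 and PCDHA12 with 0.0395 ± 0.019, which overlapped each other. In MUL1(-/-), PCDHA10 had 0.50 ± 0.067 CPM per kb, PCDHAC2 0.257 ± 0.019, PCDHA11 0.190 ± 0.038 and PCDHA12 0.114 ± 0.020, and no neighbours among these 4 overlapped. The constant exons, which the members of the cluster share, had 105, 126 and 102 counts in WT and 248, 329 and 358 in MUL1(-/-). The log2 fold change of 1.57 ± 0.17 lay within the range of the 6 tested variable exons, 1.29 to 2.30. Per kb, the longest constant bin reached 57.4% ± 12.4 of the summed variable exons in WT and 46.3% ± 6.12 in MUL1(-/-).

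Among the tested members the largest fold changes were in the beta cluster, a ranking that depends on the low-count filter. Alpha exons as low in WT were not tested. In the other fits that could include them, their log2 fold changes ran from -0.11 for PCDHA8 to 3.92 for PCDHA1. PCDHB2, an early member and the one with the most counts, had 157, 156 and 180 counts in WT and 595, 712 and 873 in MUL1(-/-). Every MUL1(-/-) library was far above every WT library, and the log2 fold change was 2.22 ± 0.17. It supplied 47.7% ± 4.34 of beta counts in WT and 56.4% ± 5.98 in MUL1(-/-), with the highest WT library at 52.2% and the lowest MUL1(-/-) library at 51.6%. With only the most counted bin of each member the share was 31.3% in WT and 38.2% in MUL1(-/-). The largest log2 fold change of any tested member was that of PCDHB7, 3.13 ± 0.53, from 3, 3 and 1 counts in WT to 18, 29 and 14 in MUL1(-/-). PCDHB7, PCDHB11, PCDHB4 and PCDHB10, with at most 9 counts in any WT library, were among the members that passed the filter through their MUL1(-/-) libraries only. So were PCDHB9 and PCDHB3, which had as few as 2 and 5 counts in a WT library.

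The next largest changes were at PCDHB11, PCDHB9, PCDHB3 and PCDHB4, all single-exon adhesion genes of the same kind. PCDHB11 had 8, 7 and 3 counts in WT and 34, 36 and 41 in MUL1(-/-), a log2 fold change of 2.68 ± 0.38. PCDHB9 had 6, 2 and 20 counts against 56, 53 and 56, a log2 fold change of 2.61 ± 0.47, with its WT libraries widely spread. PCDHB3 had 5, 6 and 11 counts against 49, 33 and 27, a log2 fold change of 2.36 ± 0.40. None of these overlapped between genotypes, and neither did PCDHB4, at 1, 2 and 7 against 15, 19 and 12 counts, with a log2 fold change of 2.23 ± 0.57. Without WT 3, the WT library with the most counts of both, the log2 fold change was 3.83 for PCDHB9 and 3.34 for PCDHB4. PCDHB8, second in level per kb in MUL1(-/-), had 14, 17 and 23 counts in WT and 56, 69 and 50 in MUL1(-/-), a log2 fold change of 1.76 ± 0.29. PCDHB12 had 11, 15 and 20 counts against 53, 55 and 50, a log2 fold change of 1.85 ± 0.29.

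The other beta members that were called higher were PCDHB16, PCDHB10 and PCDHB13, with log2 fold changes of 2.11, 2.16 and 1.78 and no overlap between the genotypes, and PCDHB10 was at 2.78 without WT 3. PCDHB14, near the downstream end of the cluster, had 28, 18 and 23 counts in WT and 28, 58 and 41 in MUL1(-/-), with CPM values of 0.209 for the highest WT and 0.211 for the lowest MUL1(-/-) library, and a log2 fold change of 0.95 ± 0.33. PCDHB15 had 31, 37 and 43 counts against 78, 40 and 77, which overlapped in CPM, and a log2 fold change of 0.89 ± 0.28. Neither was called with all libraries, though PCDHB14 was without WT 1 or without MUL1(-/-) 1, at 1.13 and 1.18, and PCDHB15 without WT 3 or without MUL1(-/-) 2, at 1.03 and 1.14. PCDHB15 made up 10.7% ± 0.543 of the beta counts in WT and 5.13% ± 1.89 in MUL1(-/-), without overlap.

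PCDHB5 went the other way. It had 18, 28 and 23 counts in WT and 13, 17 and 16 in MUL1(-/-), 0.134, 0.190 and 0.174 CPM against 0.0980, 0.130 and 0.125 CPM. The genotypes did not overlap, yet the margin was 0.134 against 0.130 CPM, and the log2 fold change of -0.50 ± 0.33 was not called here or in any of 14 other fits. In WT it was second in the cluster per kb, at 0.0622 ± 0.016 CPM against 0.0758 ± 0.0064 for PCDHB2, levels that overlapped. In MUL1(-/-) PCDHB2 had 0.464 ± 0.107 CPM per kb, and PCDHB8, with 0.158 ± 0.033, was second. PCDHB1 and PCDHB6 were not tested. PCDHB1, the most upstream beta gene, had a single count over all 6 libraries, and PCDHB6 had 1, 0 and 3 counts in WT and 8, 17 and 6 in MUL1(-/-). Beta coding exons are alike in sequence over long stretches, and how reads with several matches were counted is not given in the sources used here, so counts of single beta members are uncertain and may be split between copies. Reads were also counted without strand, and exons of antisense RNA genes lie within the counted span of 18 members, 7 alpha, 10 beta and 1 gamma, of which 10 were called higher, PCDHB2 and PCDHB7 among them. At these the sense and antisense transcripts cannot be told apart.

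**Figure D4:**
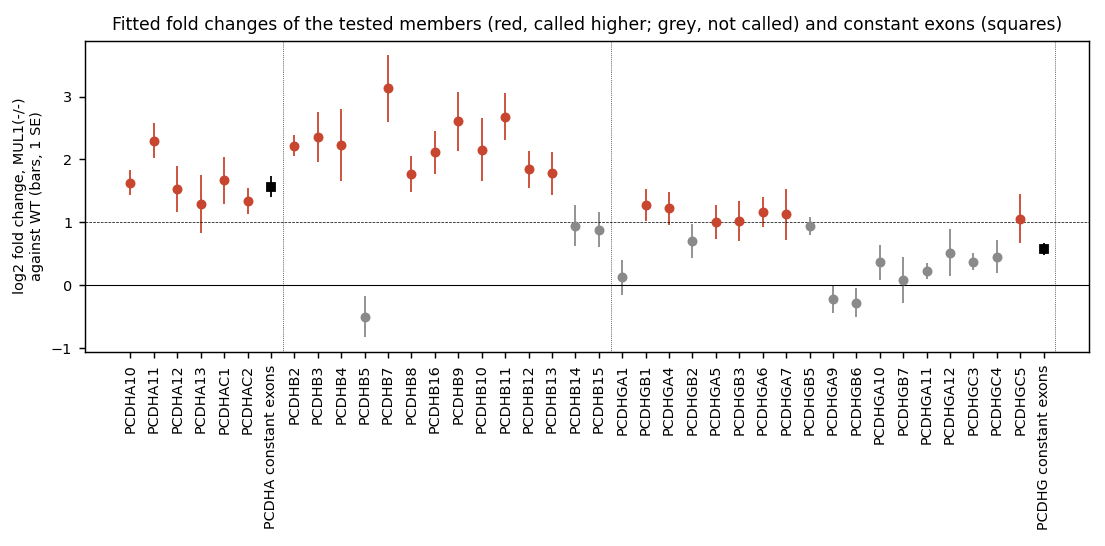
Fitted log2 fold changes, MUL1(-/-) against WT, with 1 SE, for the 38 tested members in chromosome order (red, called higher; grey, not called) and for the constant exons of the alpha and gamma clusters (squares); the dashed line is a log2 fold change of 1. Beta members reach 3.13, PCDHB5 is at -0.50, and the gamma members from PCDHGA9 to PCDHGA12 lie between -0.27 and 0.52.

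In the gamma cluster most called members lay upstream, a pattern that was seen in the values and not set beforehand. The cut is not clean, as PCDHGB5, placed downstream, had a log2 fold change of 0.95 and PCDHGA1, upstream, of 0.12. Of the 12 upstream members from PCDHGA1 to PCDHGA8, 6 were called higher and 9 had no overlap, where 4.17% and 24.9% of all tested features did. The 9 include PCDHGA3 and PCDHGB4, which were not tested. Their sum was 1.46, 1.74 and 1.85 CPM in WT and 3.39, 3.01 and 3.34 CPM in MUL1(-/-), a ratio of 1.93. Of the 7 from PCDHGB5 to PCDHGA12, 0 were called and 1, PCDHGB5, had no overlap, and their sum was 5.57, 5.93 and 7.28 CPM in WT and 8.85, 8.06 and 8.44 CPM in MUL1(-/-), a ratio of 1.35. The 3 C-type exons summed to 6.58, 7.04 and 6.94 CPM in WT and 8.14, 7.70 and 11.1 CPM in MUL1(-/-), a ratio of 1.31. By subfamily, 4 of 12 gamma A, 2 of 7 gamma B and 1 of 3 C-type members were called higher.

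The called upstream members were PCDHGB1, PCDHGA4, PCDHGA5, PCDHGB3, PCDHGA6 and PCDHGA7, each an ordinary variable exon, with log2 fold changes from 1.01 to 1.28. None of the 6 overlapped between the genotypes. PCDHGB1, the largest of them, had 23, 44 and 37 counts in WT and 96, 70 and 73 in MUL1(-/-), a log2 fold change of 1.28 ± 0.25. PCDHGA4 had 18, 25 and 24 counts against 47, 50 and 52, a log2 fold change of 1.23 ± 0.26, and PCDHGA6 had 30, 27 and 33 against 68, 57 and 67, a log2 fold change of 1.16 ± 0.24. PCDHGA5 and PCDHGB3, at 1.01 and 1.02, lay just past the limit on the fold and were called in 11 and 10 of 15 other fits. PCDHGA5 was not called without WT 3 or without MUL1(-/-) 2, at 0.90 and 0.92, nor PCDHGB3 without WT 2 or without MUL1(-/-) 3, at 0.88 and 0.68. PCDHGA7 was called in 6 of its 15 other fits, and in none of the 6 that left out 1 library. PCDHGB2, at 0.70 ± 0.27, was not called, with 29, 38 and 40 counts in WT and 72, 40 and 53 in MUL1(-/-). PCDHGA1, the first of the cluster, had 27, 42 and 29 counts against 39, 34 and 28, which overlapped, and a log2 fold change of 0.12 ± 0.27. PCDHGA2, PCDHGA3, PCDHGB4 and PCDHGA8 were not tested, with at most 13 counts in any library.

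PCDHGB5 stood at the border between the upstream and the downstream members and was among the most abundant. It had 246, 264 and 293 counts in WT and 486, 439 and 544 in MUL1(-/-), without overlap. Its log2 fold change of 0.95 ± 0.14 fell just short of the limit of 1, which it passed in 3 of 16 other fits. Its share of the gamma counts was 13.2% ± 0.874 in WT and 18.1% ± 0.385 in MUL1(-/-), with no overlap. PCDHGA11, of similar abundance in WT, had 301, 343 and 364 counts against 387, 384 and 352, 2.24, 2.33 and 2.76 CPM against 2.92, 2.93 and 2.75 CPM, which overlapped, and a log2 fold change of 0.23 ± 0.13. Per kb, PCDHGA11 with 0.890 ± 0.12 and PCDHGB5 with 0.813 ± 0.099 CPM overlapped in WT, while in MUL1(-/-) PCDHGB5 with 1.57 ± 0.19 CPM was above PCDHGA11 with 1.06 ± 0.025.

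The other downstream gamma members overlapped between the genotypes. PCDHGB6 had 74, 107 and 117 counts in WT and 93, 84 and 57 in MUL1(-/-), a log2 fold change of -0.27 ± 0.23. PCDHGA9 had 51, 79 and 76 counts against 56, 60 and 52, a log2 fold change of -0.22 ± 0.22. PCDHGB7, with 32, 23 and 35 counts against 49, 21 and 21, had a log2 fold change of 0.08 ± 0.36, which ran from -0.43 to 0.29 in the other fits. PCDHGA10 and PCDHGA12 had log2 fold changes of 0.37 ± 0.28 and 0.52 ± 0.37, and PCDHGA12 was spread from 17 to 40 counts in WT and from 27 to 58 in MUL1(-/-). These values do not show that the members were alike in both genotypes. The standard errors were close to the fold changes in size or, for PCDHGB7, well above it.

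Among the gamma C-type exons PCDHGC3, which is widely expressed outside the nervous system, was the most abundant member of all 3 clusters per kb, at 1.71 ± 0.068 CPM in WT and 1.98 ± 0.29 CPM in MUL1(-/-), where it overlapped PCDHGB5 at 1.57 ± 0.19 CPM. With only the most counted bin of each member, PCDHGC3 held 13.1% of the gamma counts in WT and 10.3% in MUL1(-/-), and PCDHGB5 23.2% and 30.5%. PCDHGC3 had 846, 984 and 871 counts in WT and 1005, 952 and 1352 in MUL1(-/-), 6.31, 6.67 and 6.60 CPM against 7.58, 7.25 and 10.5 CPM. The MUL1(-/-) libraries were all above WT, 1 of them well above the other two, and the log2 fold change was 0.37 ± 0.13. PCDHGC4 had 27, 37 and 27 counts in WT and 39, 43 and 36 in MUL1(-/-), a log2 fold change of 0.45 ± 0.26, and was not called. PCDHGC5, the last exon, had 9, 17 and 18 counts against 36, 16 and 35, so that MUL1(-/-) 2 lay within the WT range. Its log2 fold change of 1.06 ± 0.39 was called, but in 8 of 15 other fits only.

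The gamma constant exons had 1336, 1386 and 1382 counts in WT and 1972, 1791 and 2069 in MUL1(-/-), all MUL1(-/-) libraries above WT. The log2 fold change of 0.58 ± 0.09 was below the limit of 1. Per kb, the longest constant bin stood at 62.3% ± 2.37 of the summed variable exons in WT and 66.8% ± 2.56 in MUL1(-/-).

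Beside and between the clusters 1 gene was called higher and 1 lower. The 33 neighbours were the nearest 15 protein-coding genes on each side and the 3 between the members, of which 32 were tested. Over all features 4.17% were called higher and 3.75% lower, so the neighbours are not shown to differ from other genes in this. On the adjusted p alone 7 were higher and 6 lower, where 19.3% and 18.4% of all features were. Their median log2 fold change was 0.05 beside -0.0010 over all features tested. Next to the alpha cluster, ZMAT2 had a log2 fold change of 0.08 ± 0.07 and HARS2, the mitochondrial histidyl-tRNA synthetase, of -0.07 ± 0.07. Between the beta and gamma clusters TAF7, a TFIID subunit, measured 86.3 ± 2.86 CPM in WT cells against 88.9 ± 6.65 CPM without MUL1, a log2 fold change of 0.04 ± 0.07. AC244517.10, a protein-coding gene inside the beta cluster whose span overlaps PCDHB14, had 8, 11 and 5 counts in WT and 19, 11 and 16 in MUL1(-/-), with every MUL1(-/-) library above WT in CPM, and was not called at a log2 fold change of 1.01 ± 0.42 (edgeR adjusted p = 0.075). Downstream of the gamma cluster DIAPH1, an actin nucleator, had a log2 fold change of 0.15 ± 0.06. These 5 were chosen after their values were seen. HDAC3, a histone deacetylase, had a log2 fold change of 0.27 ± 0.07 (edgeR adjusted p = 0.0055). The called neighbours lay well away from the members, SPRY4, an inhibitor of receptor tyrosine kinase signalling, at -1.82 ± 0.12 (adjusted p = 1.0e-07) and FGF1, a growth factor, at 1.59 ± 0.46 (adjusted p = 0.015), the latter from 0.0606 to 0.183 CPM and not called without WT 1 or without MUL1(-/-) 2, where it was 1.20 and 1.26.

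**Figure D5:**
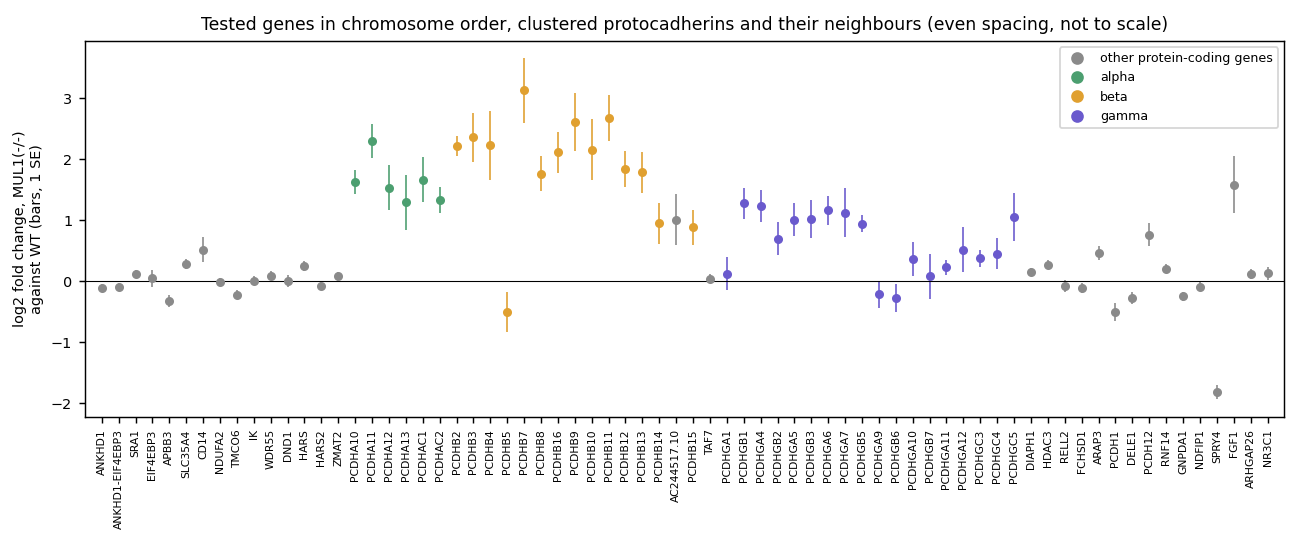
Fitted log2 fold changes with 1 SE of the 38 tested members and their 32 tested neighbours, in chromosome order with even spacing. The neighbours before the alpha cluster lie between -0.32 and 0.51, while the members before PCDHB14 other than PCDHB5 lie at 1.29 or above.

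The regulators of protocadherin promoter choice were measured as transcripts only. Of 30 genes for CTCF, cohesin, DNA methylation and heterochromatin, all were tested and 0 were called in either direction by edgeR, DESeq2 or limma-voom. Over all features edgeR called 4.17% higher and 3.75% lower. On the adjusted p alone 7 were higher and 8 lower, where 19.3% and 18.4% of all features were. These counts are therefore not read as a result about the list. At an unadjusted p under 0.05 with any fold 9 were higher and 10 lower in edgeR, with no share over all features at hand. The median log2 fold change was 0.02. CTCF went from 41.4 ± 1.89 to 49.7 ± 8.07 CPM, a log2 fold change of 0.26 ± 0.10 (edgeR adjusted p = 0.049). SMCHD1, a chromatin protein that keeps clustered protocadherins silent, had a log2 fold change of 0.12 ± 0.08 (adjusted p = 0.243). DNMT3B, a DNA methyltransferase that acts on these promoters, went from 46.6 ± 2.30 to 29.4 ± 0.884 CPM, a log2 fold change of -0.66 ± 0.07 (edgeR adjusted p = 8.2e-06). The lowest and highest values of the list, named after they were seen, were TET1, which oxidises methylated cytosine, at -0.86 ± 0.12 (adjusted p = 8.9e-05) and ZNF274, a zinc finger repressor, at 0.67 ± 0.07 (adjusted p = 9.9e-06). Whether any of these differences bears on the members was not tested.

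Relatives outside the clusters moved in both directions. Of 22 non-clustered protocadherins and large cadherins 21 were tested, and 2 were called higher and 2 lower, where 4.17% and 3.75% of all features were. Their median log2 fold change was 0.14. PCDH8, an activity-regulated protocadherin, went from 0.0211 ± 0.017 to 0.405 ± 0.039 CPM, a log2 fold change of 4.17 ± 0.42 (edgeR adjusted p = 4.6e-06) that was 5.04 without WT 2, and PCDH17, which is expressed in brain circuits, from 0.0484 ± 0.0035 to 0.176 ± 0.092 CPM, 1.84 ± 0.45 (adjusted p = 0.0053). PCDH15, the tip-link protocadherin of hair cells, fell from 0.663 ± 0.053 to 0.0864 ± 0.043 CPM, -2.92 ± 0.30 (adjusted p = 5.0e-06), and PCDH20 from 3.14 ± 0.127 to 0.996 ± 0.148 CPM, -1.66 ± 0.14 (adjusted p = 1.2e-06). PCDH11X was not tested. Of 26 genes for partners of clustered protocadherins, among them the WAVE complex and the proteases that cut them, all were tested. By edgeR, DESeq2 or limma-voom 0 were called higher and 1 lower, with a median log2 fold change of 0.02. These calls too stand beside 4.17% higher and 3.75% lower over all features. At an unadjusted p under 0.05 with any fold 8 were higher and 4 lower in edgeR, with no share over all features at hand. RET, a receptor tyrosine kinase that binds protocadherins, fell from 2.47 ± 0.567 to 1.05 ± 0.138 CPM, a log2 fold change of -1.24 ± 0.18 (adjusted p = 0.00012).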

How the data were processed

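Total RNA of 3 WT and 3 MUL1(-/-) HEK293 samples was sequenced after SMARTer library preparation. The deposited files hold raw counts per exon bin, 597973 bins in each library, made by the authors on GRCh38. The submitters' processing notes name Trimmomatic 0.36 and STAR 2.5.2b, and the counting program is not given in the sources used here. Bins at the same place on opposite strands held equal counts (median ratio 1.000 over 12 pairs), so sense and antisense reads cannot be told apart. The design assumed a table of genes. Bins were therefore summed to 57893 features with bedtools 2.31.1 and GENCODE 29, the 76 joined alpha and 99 joined gamma bins by position, to the variable exon or to the constant exons, which are exons that start at one place in at least 10 members. Members, gene lists and tests were chosen with earlier results of these data known. Named members were, in each cluster, the 4 highest in CPM per kb, all C-type members and the 6 highest and 6 lowest fold changes; of the other lists, called genes, CTCF, SMCHD1, DNMT3B, HDAC3 and MUL1.

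edgeR 4.0.16 (R 4.3.3) fitted all 6 libraries with filterByExpr, TMM scaling, the quasi-likelihood test and Benjamini-Hochberg adjustment over 26055 features. Alternatives were DESeq2 1.42.0, limma-voom 3.58.1, other scalings, filters and bins, the replicate block and leaving out each library, and each method was tested on simulated data. The SE given with an edgeR log2 fold change is its absolute value divided by the square root of the quasi-likelihood F statistic. P-values measure only the spread between these libraries. Figures were drawn with matplotlib 3.10.9.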

Additional observations from a re-analysis of the deposited data

Results flagged for a closer look

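Pseudogenes inside the clusters are outside the 53 members, and 4 of 6 had every MUL1(-/-) library above every WT library and above 3 counts, where 24.9% of all tested features had every MUL1(-/-) library above WT. PCDHA14 went from 0.293 CPM in WT to 0.643 CPM in MUL1(-/-), PCDHB17P from 0.00723 to 0.0791 CPM, PCDHB18P from 0.0461 to 0.254 CPM and PCDHGB9P from 0.0838 to 0.158 CPM (means, n = 3). In counts these were 40, 43 and 38 against 90, 77 and 85 for PCDHA14, 2, 1 and 0 against 7, 15 and 9 for PCDHB17P, 2, 7 and 10 against 36, 42 and 22 for PCDHB18P, and 9, 16 and 10 against 24, 22 and 16 for PCDHGB9P. The other pseudogenes overlapped between the genotypes, PCDHGB8P with 30, 51 and 44 counts against 43, 25 and 26, and PCDHB19P with 1, 2 and 6 against 7, 8 and 3. The 4 above were noted as signal outside the main measurement that exceeded the WT level. Pseudogenes resemble members in sequence, and whether their counts include reads of members was not tested.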

How the results depend on the processing

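The tested counts kept within 1.5 times of their value and the constant exons and totals kept their direction except as follows, and no called direction reversed. With a filter of at least 1 CPM in 3 samples, 1 alpha, 1 beta and 0 gamma members were called higher, since few members reach that level; non-clustered protocadherins were then 0 higher and 1 lower, and neighbours 0 higher. Unshared bins gave 3 alpha members and 1 non-clustered protocadherin higher, and the most counted bin 1 of the latter and 0 neighbours higher. limma-voom gave 4 gamma members. On the adjusted p alone, regulators were 7 higher and 8 lower, non-clustered protocadherins 6 and 6, neighbours 7 and 6, partners 5 and 2, and the gamma constant exons, at 0.58, were past the threshold. By that rule 19.3% of all features were higher and 18.4% lower. Leaving out 1 library gave 4 to 6 gamma members called higher, with 4 without WT 2 or MUL1(-/-) 3, and 0 to 1 neighbours higher. The replicate numbers gave no clear sign of pairing. Deviations of same-numbered libraries correlated at -0.109, 0.168 and 0.1 over 16634 genes, beside a mean of -0.0233 for different numbers. With 3 libraries per genotype this cannot exclude pairing. With the replicate block 5 alpha, 11 beta and 4 gamma members were called higher.

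The alpha total had a log2 ratio of 1.43 over all exon bins before the constant exons, and the beta total 1.66 without its leading member, both chosen after seeing the data. With the most counted bin, PCDHB2 made up 31.3% of beta counts in WT and 38.2% in MUL1(-/-), PCDHGC3 13.1% and 10.3% and PCDHGB5 23.2% and 30.5% of gamma counts, and gamma C-type exons 15.5% and 13.2%; the alpha C-type share in MUL1(-/-) was 31.1%. With unshared bins alpha C-type exons were 9.59% in WT and 8.64% in MUL1(-/-), and PCDHGB5 was 18.7% in MUL1(-/-). With all exon bins before the constant exons PCDHGC3 was 39.8% and gamma C-type exons 42.1% in WT, PCDHGB5 17.5% in MUL1(-/-), and alpha C-type exons 18.4% in WT and 17.8% in MUL1(-/-). Depth limited 10 members, which had at most 3 counts in every WT library.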

Other observations

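Antisense RNA genes lie on the opposite strand between the members and across the counted spans of some of them. Of 13 such genes 6 had every MUL1(-/-) library above every WT library and above 3 counts. Over all tested features 24.9% had every MUL1(-/-) library above WT. AC244517.5, the most counted, had 39, 41 and 64 counts in WT and 181, 182 and 234 in MUL1(-/-). AC244517.2 had 4, 3 and 2 counts in WT and 20, 19 and 19 in MUL1(-/-). Because counting ignored strand, these counts cannot be told apart from sense transcripts over the same bases. The lincRNA AC005618.1, on the strand of the members between PCDHB15 and PCDHGA1, had 65, 45 and 52 counts in WT and 48, 28 and 41 in MUL1(-/-), which overlapped.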
